A study of Homo sapiens with 6 samples.

Results

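The peaks of human chromosome 14 were 1369 of the 35687 peaks in 3 lists made by chromatin immunoprecipitation and sequencing (ChIP-seq) of lung epithelial cell lines. They were taken by chromosome name from the hg19 peak lists: 286 of 9769 BRD8 peaks of Calu3, 541 of 9505 BRD8 peaks of 16HBE14o- and 542 of 16413 CTCF peaks of Calu3. The chromosome was chosen by its numbers of BRD8 peaks, known to be higher in 16HBE14o-, so these numbers are a description and were not tested. Calu3 is a lung adenocarcinoma line and 16HBE14o- an immortalised bronchial epithelial line. Both grew in DMEM with fetal bovine serum and had no treatment, and the same Active Motif antibody was used for BRD8 in both. CTCF was precipitated with a Millipore antibody, in Calu3. Each experiment had 2 samples, and the authors combined them into 1 list, so no value below has a spread between replicates. The read depth of the lists is unknown. Intervals are 95% exact intervals over peaks and cover counting error only.

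The NuA4/TIP60 complex, which acetylates histones and exchanges the variant H2A.Z, has BRD8 as its bromodomain subunit. The zinc finger protein CTCF recognises a DNA motif and, with cohesin, anchors chromatin loops and marks domain boundaries. Chromosome 14 is acrocentric: its short arm consists of ribosomal and other repeats that are not assembled in hg19, and its genes lie on the long arm. Among them are NKX2-1, the transcription factor of lung and thyroid identity, FOXA1, a pioneer factor of airway epithelium, SERPINA1, which encodes the antiprotease alpha-1 antitrypsin, CHD8, a chromatin remodeller known to bind CTCF, and the immunoglobulin heavy chain locus near the end of the long arm.

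BRD8 peaks on chromosome 14 were fewer in Calu3 than in 16HBE14o-. They made up 2.93% of the Calu3 list (2.60 to 3.28%), against 5.69% of the 16HBE14o- list (5.23 to 6.18%), a ratio of list shares of 0.514 (0.444 to 0.595). The Calu3 CTCF list had 3.30% of its peaks there (3.03 to 3.59%). Set against CTCF, the Calu3 BRD8 share was 0.887 times and the 16HBE14o- BRD8 share 1.72 times the CTCF share. Chromosome 14 had the fifth lowest ratio of the 23 chromosomes with peaks, after 21, 13, 6 and 4. Among the neighbouring acrocentric chromosomes, chromosome 13 held 46 Calu3 and 126 16HBE14o- BRD8 peaks, a ratio of 0.355 (0.248 to 0.502). Chromosome 15 held 290 and 335, a ratio of 0.842 (0.717 to 0.989). These are comparisons of single lists, and no test between chromosomes was made.

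**Figure D1:**
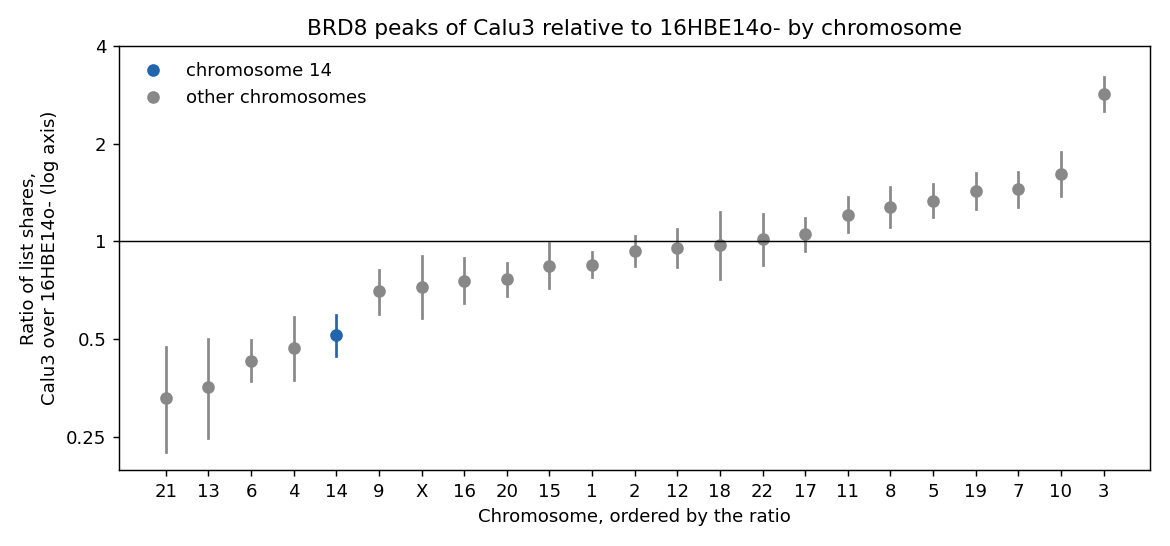
Ratio of list shares, Calu3 over 16HBE14o-, on a log axis for each of the 23 chromosomes in order of the ratio, with 95% exact intervals as vertical lines. Chromosome 14 lies at 0.514, between chromosomes 4 and 9.

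The form of the peaks differed between the lists. The usual width on chromosome 14 was 476 bp for Calu3 BRD8 (94.1% of peaks), 224 bp for 16HBE14o- BRD8 (541 of 541) and 290 bp for CTCF (74.9%). Some neighbouring Calu3 BRD8 peaks overlapped each other, and merging them left 245 regions from 286 peaks, 40 of them made of several peaks. Merging left 541 regions in 16HBE14o-. Calu3 BRD8, with fewer and wider peaks, covered 122 kb of the chromosome and 16HBE14o- BRD8 121 kb.

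Peaks were placed by their summits into 22 bins of 5 Mb counted from the short-arm end. The first 4 bins, to 20 Mb, held no peak of any list. In the other 18 bins, 16HBE14o- had more BRD8 peaks in 16, Calu3 had more in 1, and 1 bin had equal numbers. A bin was called for a line where the ratio of list shares was at most 0.5 or at least 2 and the lists together had at least 10 BRD8 peaks there. Of 14 chromosome 14 bins with enough peaks, 9 were called for 16HBE14o- and 0 for Calu3. The same rule called 23.4% of 445 bins of the genome for 16HBE14o- and 16.9% for Calu3. Since the chromosome was picked for this excess, its 9 bins were not set against that background. The bin nearest to the threshold on the inside had a ratio of 0.498, and the nearest outside 0.534.

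**Figure D2:**
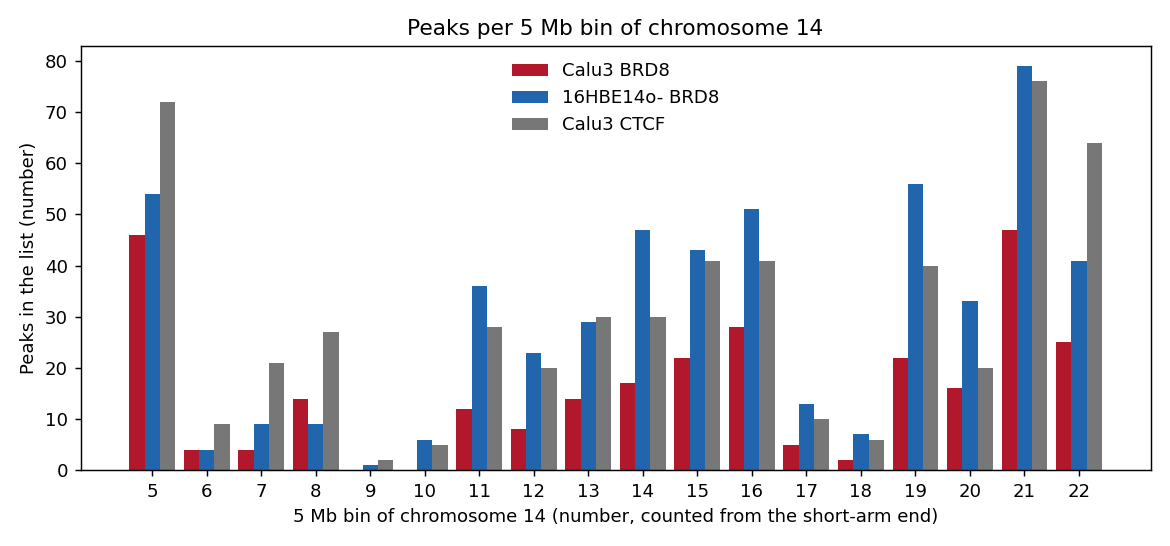
Number of peaks of each list in each 5 Mb bin of chromosome 14 from bin 5 (20 to 25 Mb) to bin 22 (105 Mb to the end); bars are single counts with no error. The 16HBE14o- bars are close to the Calu3 BRD8 bars in bins 5 to 8 and above them in each later bin.

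The lines had similar numbers of BRD8 peaks from 20 to 40 Mb. The gene-dense bin from 20 to 25 Mb, in 14q11.2 and 14q12, held 46 Calu3 BRD8, 54 16HBE14o- BRD8 and 72 CTCF peaks, a ratio of 0.829 (0.547 to 1.25). From 25 to 30 Mb there were 4 Calu3 BRD8, 4 16HBE14o- BRD8 and 9 CTCF peaks, and from 30 to 35 Mb 4, 9 and 21. The bin from 30 to 35 Mb was called for 16HBE14o- (ratio 0.432, 0.0973 to 1.55) on 13 BRD8 peaks. Calu3 had more peaks from 35 to 40 Mb alone, with 14 Calu3 BRD8, 9 16HBE14o- BRD8 and 27 CTCF peaks (ratio 1.51, 0.610 to 3.96). Over these 4 bins together Calu3 had 68 BRD8 peaks and 16HBE14o- 76, a ratio of 0.871 (0.618 to 1.22).

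Most of the excess of 16HBE14o- lay beyond 40 Mb. There Calu3 had 218 BRD8 peaks and 16HBE14o- 465, a ratio of 0.456 (0.387 to 0.537). This stretch held 96.9% of the net difference of -255 peaks (Calu3 minus 16HBE14o-). It also held most BRD8 peaks of the chromosome, 218 of 286 in Calu3 and 465 of 541 in 16HBE14o-. Before 40 Mb, the differences of -5 from 30 to 35 Mb and 5 from 35 to 40 Mb cancelled each other. The division at 40 Mb was chosen after the bins had been counted. From 40 to 45 Mb the lists had 0 Calu3, 1 16HBE14o- and 2 CTCF peaks, and from 45 to 50 Mb 0, 6 and 5. The lowest ratio of a called bin was that from 50 to 55 Mb, in 14q21.3 to 14q22.2, with 12 Calu3 and 36 16HBE14o- BRD8 peaks beside 28 CTCF peaks (ratio 0.324, 0.154 to 0.638). From 55 to 60 Mb there were 8 Calu3 and 23 16HBE14o- peaks (0.338, 0.131 to 0.784), and from 60 to 65 Mb 14 and 29 (0.470, 0.229 to 0.918). The bin from 65 to 70 Mb, in 14q23.3 and 14q24.1, held 17 Calu3 and 47 16HBE14o- peaks beside 30 CTCF peaks (0.352, 0.189 to 0.624). BRD8 peaks of 16HBE14o- thus outnumbered the Calu3 CTCF peaks in 3 of these 4 bins.

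The excess continued to the end of the long arm. From 70 to 75 Mb there were 22 Calu3 and 43 16HBE14o- BRD8 peaks (ratio 0.498, 0.284 to 0.851), and from 75 to 80 Mb 28 and 51 (0.534, 0.324 to 0.863). The peak-poor bins from 80 to 85 Mb and from 85 to 90 Mb held 5 and 2 Calu3 peaks, against 13 and 7 of 16HBE14o-. The greatest difference in number of any bin, -34 peaks, lay from 90 to 95 Mb in 14q32.11 to 14q32.13, with 22 Calu3 and 56 16HBE14o- peaks beside 40 CTCF peaks (0.382, 0.222 to 0.636). From 95 to 100 Mb there were 16 and 33 peaks (0.472, 0.242 to 0.882). The bin from 100 to 105 Mb was the fullest of all 3 lists on the chromosome, with 47 Calu3 BRD8, 79 16HBE14o- BRD8 and 76 CTCF peaks (0.579, 0.395 to 0.841). The last bin, which ends at 107.35 Mb, held 25, 41 and 64 (0.593, 0.346 to 0.999). In 10 of the 14 bins with at least 10 BRD8 peaks the interval of the ratio lay below 1, each of them beyond 50 Mb.

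**Figure D3:**
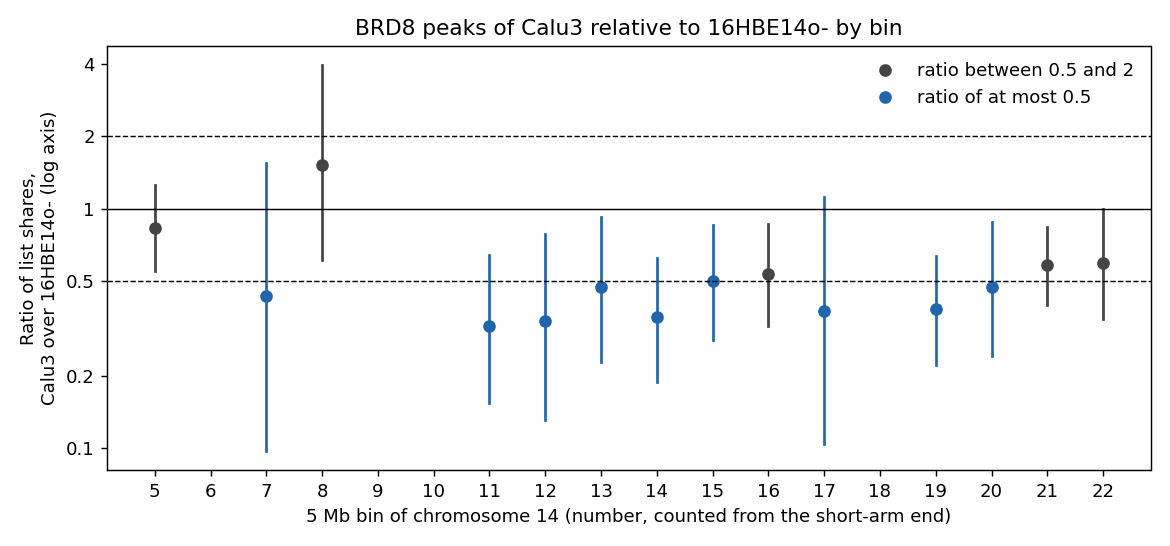
Ratio of list shares of BRD8 peaks, Calu3 over 16HBE14o-, on a log axis for the 14 bins with at least 10 BRD8 peaks; vertical lines are 95% exact intervals, dashed lines mark 0.5 and 2. Bins 5 and 8 lie at 0.829 and 1.51, and the bins from 11 on lie between 0.324 and 0.593.

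Signal ranks within each list also differed between the lines on chromosome 14. Ranks are given as percentiles by the authors' signal, where 100 is the strongest end of the whole list, and signals of different lists were not compared. Calu3 BRD8 peaks had a median percentile of 49.2 (quartiles 28.5 and 75.8), against 50.02 on other chromosomes. For 16HBE14o- BRD8 the median was 56.8 (26.7 and 84.4), against 49.7 on other chromosomes, the second highest of the 23 chromosomes. CTCF peaks had a median of 46.9 (24.1 and 74.4), against 50.1 elsewhere. Of the strongest decile of its own list, chromosome 14 held 27 Calu3 BRD8 peaks, or 9.44% of its Calu3 peaks (6.31 to 13.4%), and 99 16HBE14o- peaks, or 18.3% (15.1 to 21.8%). The CTCF list had 63 such peaks there, or 11.6% (9.05 to 14.6%). The excess was present in both parts of the lists: the ratio was 0.456 (0.370 to 0.559) among peaks of the upper 50% by signal and 0.588 (0.475 to 0.725) among those of the lower 50%. Among the upper 10% it was 0.265 (0.167 to 0.409).

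The median ranks differed between the stretches before and beyond 40 Mb, but not in the same way in each bin. From 20 to 40 Mb the median percentile was 54.0 for Calu3 BRD8, 43.2 for 16HBE14o- BRD8 and 40.1 for CTCF. Beyond 40 Mb it was 48.2 for Calu3 BRD8, 57.9 for 16HBE14o- BRD8 and 51.2 for CTCF. The 16HBE14o- median was above that of Calu3 in 10 of the 16 bins with peaks of both lines. Calu3 had the higher median from 55 to 60 Mb (61.6 against 54.0) and from 100 to 105 Mb (61.1 against 54.8), among others. From 30 to 35 Mb 16HBE14o- had the higher one (44.8 against 34.9). In single bins the medians ranged from 31.1 (60 to 65 Mb) to 66.5 (20 to 25 Mb) for Calu3 BRD8. Those of 16HBE14o- ranged from 18.3 (35 to 40 Mb) to 77.8 (105 Mb to the end), with a single peak at 1.23 from 40 to 45 Mb. The bin from 35 to 40 Mb, where Calu3 had more peaks, was thus also the bin of weakest 16HBE14o- peaks among those with at least 2 of them. The bins with most strong 16HBE14o- peaks were those from 90 to 95 Mb and from 100 to 105 Mb, each with 17 in the strongest decile, followed by the last bin with 14 and that from 65 to 70 Mb with 10. In these 4 bins Calu3 had 2, 6, 2 and 0 BRD8 peaks in its strongest decile. CTCF peaks were also strongest near the end of the arm, with medians of 67.0 from 100 to 105 Mb and 67.0 in the last bin, which held 20 and 12 CTCF peaks of the strongest decile.

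Most Calu3 BRD8 sites of chromosome 14 were also called in 16HBE14o-, and most 16HBE14o- sites were not called in Calu3. By overlap of at least 1 bp, 220 of 286 Calu3 peaks were shared, or 76.9% (71.6 to 81.7%), against 49.2% on other chromosomes and 50.1% in the whole list. In 16HBE14o-, 188 of 541 were shared, or 34.8% (30.7 to 38.9%), against 43.9% on other chromosomes and 43.4% in the whole list. The shared part of the Calu3 peaks was the highest of the 23 chromosomes, but it was also high on chromosomes 21 (73.2%), 20 (70.2%) and 13 (69.6%, 54.2 to 82.3%). The shared parts of both lines depend on the numbers of peaks by which the chromosome was chosen, so they contain that excess. The 66 Calu3 peaks of that line alone and the 353 of 16HBE14o- alone differed in position: 19 of the 66 lay from 20 to 25 Mb and 11 from 35 to 40 Mb. From 50 Mb on, each bin held at most 6 Calu3 peaks of that line alone, against 6 to 44 of 16HBE14o- alone. In that distal stretch 184 of 218 Calu3 peaks were shared (84.4%, 78.9 to 89.0%), and from 20 to 40 Mb 36 of 68 (52.9%, 40.4 to 65.2%). The stretches were divided where the 16HBE14o- peaks became more numerous, so this contrast contains the excess too. A 16HBE14o- peak with no Calu3 partner had a median distance of 63.1 kb to the nearest Calu3 BRD8 summit, and 127 of the 353 lay more than 100 kb from one. A Calu3 peak with no 16HBE14o- partner lay a median of 30.6 kb from the nearest 16HBE14o- summit. Such distances depend on how many peaks the other line has, so they describe the excess again. They were taken on chromosome 14 only.

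At the shared sites of chromosome 14 the median within-list percentile was lower in Calu3 than in 16HBE14o-. Over the 220 shared Calu3 peaks of chromosome 14 the median percentile was 53.5 in Calu3 and 84.6 in 16HBE14o-. The median of the paired differences, Calu3 minus 16HBE14o-, was -16.7 percentile points (quartiles -42.8 and 2.55), and the 16HBE14o- percentile was the higher one at 156 sites. At 4670 shared Calu3 peaks of other chromosomes the median difference was -0.184 points (quartiles -25.5 and 21.7). Along chromosome 14 the difference was 3.92 points at 36 sites from 20 to 40 Mb, of which 13 ranked higher in 16HBE14o-. Beyond 40 Mb it was -21.3 points at 184 sites, of which 143 ranked higher in 16HBE14o-. Each site here is a Calu3 peak, and some of them share a 16HBE14o- partner. With 1 pair for each 16HBE14o- peak, the 16HBE14o- percentile was higher in 8 of 30 pairs from 20 to 40 Mb (median difference 5.60 points). Beyond 40 Mb it was higher in 117 of 158 pairs (-16.7 points). In each bin beyond 50 Mb the median difference was below 0, from -3.40 points at 6 sites (55 to 60 Mb) to -34.9 at 12 sites (60 to 65 Mb), and -70.2 at the single site from 85 to 90 Mb. It was also below 0 from 25 to 30 Mb and from 30 to 35 Mb, at -12.4 and -5.12 points over 3 sites each. Percentiles place a peak within its own list, so a lower percentile in Calu3 is a lower position among Calu3 peaks and not a measured loss of BRD8. Which peaks are shared depends on the numbers of peaks by which the chromosome was chosen and divided at 40 Mb. The differences at shared sites are therefore not separate from the excess.

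**Figure D4:**
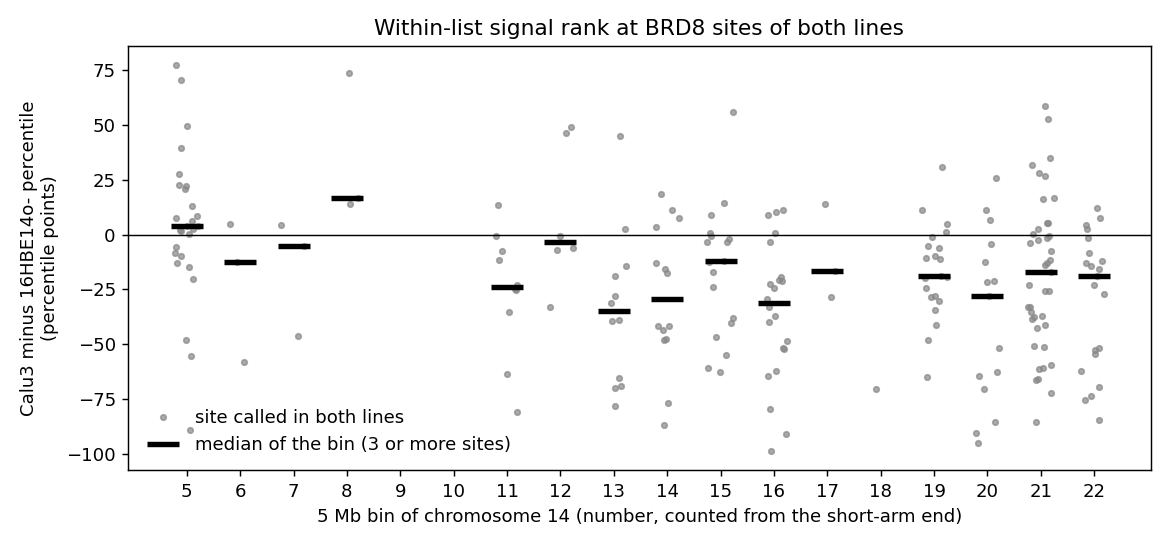
Difference in within-list percentile, Calu3 minus 16HBE14o-, at each of the 220 Calu3 BRD8 peaks of chromosome 14 also called in 16HBE14o- (grey points, spread sideways within a bin), with the median of each bin of at least 3 sites (black bars). The median is above 0 in bin 5 (3.77) and bin 8 (16.6) and below 0 in each other bin that has a bar.

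The CTCF peaks of Calu3 offered 1 common set of sites on which to set the BRD8 lists side by side. Of 542 CTCF peaks on chromosome 14, 177 had BRD8 in Calu3, or 32.7% (28.7 to 36.8%), and 300 had BRD8 in 16HBE14o-, or 55.4% (51.1 to 59.6%). In the whole CTCF list these shares were 36.1% and 38.0%. BRD8 was present in both lines at 153 CTCF peaks (28.2%, against 21.8% in the whole list), in Calu3 alone at 24 (4.43%, against 14.3%), in 16HBE14o- alone at 147 (27.1%, against 16.3%) and in neither at 218 (40.2%, against 47.7%). Chromosome 13 had BRD8 in Calu3 alone at 2.92% of its 137 CTCF peaks (0.801 to 7.31%) and in 16HBE14o- alone at 32.8% (25.1 to 41.4%). Its share with BRD8 in both lines was lower than on chromosome 14, at 15.3% (9.75 to 22.5%), and neither line had BRD8 at 48.9%. On chromosome 15 BRD8 was present in Calu3 alone at 13.9% and in 16HBE14o- alone at 20.7%. The share with 16HBE14o- BRD8 was the highest of the 23 chromosomes, but it was also high on chromosomes 20 (54.3%), 6 (49.2%) and 13 (48.2%). That share contains the excess by which the chromosome was chosen. The share with Calu3 BRD8 was 36.2% on other chromosomes (35.4 to 37.0%), an interval that overlapped that of chromosome 14.

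CTCF peaks with BRD8 in 16HBE14o- alone were spread along the long arm and were of middle strength. They outnumbered those with BRD8 in Calu3 alone in 15 bins, and the reverse held in 1 bin, that from 35 to 40 Mb with 5 for Calu3 and 4 for 16HBE14o-. From 20 to 40 Mb the numbers were 13 for Calu3 alone and 27 for 16HBE14o- alone, of which 8 and 21 lay from 20 to 25 Mb. Beyond 40 Mb they were 11 and 120. The share of CTCF peaks with Calu3 BRD8 was 29.5% (21.8 to 38.1%) from 20 to 40 Mb and 33.7% (29.1 to 38.4%) beyond. With 16HBE14o- BRD8 it was 40.3% (31.8 to 49.3%) and 60.0% (55.1 to 64.8%). The division was set where the 16HBE14o- peaks became more numerous, so these shares describe that excess again. CTCF sites with BRD8 in both lines had a median CTCF percentile of 71.6, those with Calu3 alone 44.2, those with 16HBE14o- alone 44.4 and those with neither 32.7. On other chromosomes the sites with 16HBE14o- alone had a median CTCF percentile of 61.2.

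The extra 16HBE14o- sites reached down to weak CTCF peaks. CTCF peaks were divided by CTCF percentile at 25, 50 and 75. In the strongest class 82 of 134 carried Calu3 BRD8 (61.2%, 52.4 to 69.5%) and 110 of 134 carried 16HBE14o- BRD8 (82.1%, 74.5 to 88.2%). On other chromosomes these shares were 58.5% and 67.4%. In the weakest class 21 of 145 carried Calu3 BRD8 (14.5%, 9.19 to 21.3%) and 50 of 145 carried 16HBE14o- BRD8 (34.5%, 26.8 to 42.8%), against 16.4% and 14.8% on other chromosomes. From percentile 25 to 50 the shares were 25.4% with Calu3 BRD8 (18.4 to 33.3%) and 53.5% with 16HBE14o- BRD8 (44.97 to 61.9%), against 29.7% and 28.4% on other chromosomes. From 50 to 75 they were 31.4% with Calu3 BRD8 (23.3 to 40.5%) and 52.9% with 16HBE14o- BRD8 (43.6 to 62.0%), against 40.1% and 39.0%. The 16HBE14o- shares contain the excess by which the chromosome was chosen, so they describe where among CTCF peaks it lay.

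**Figure D5:**
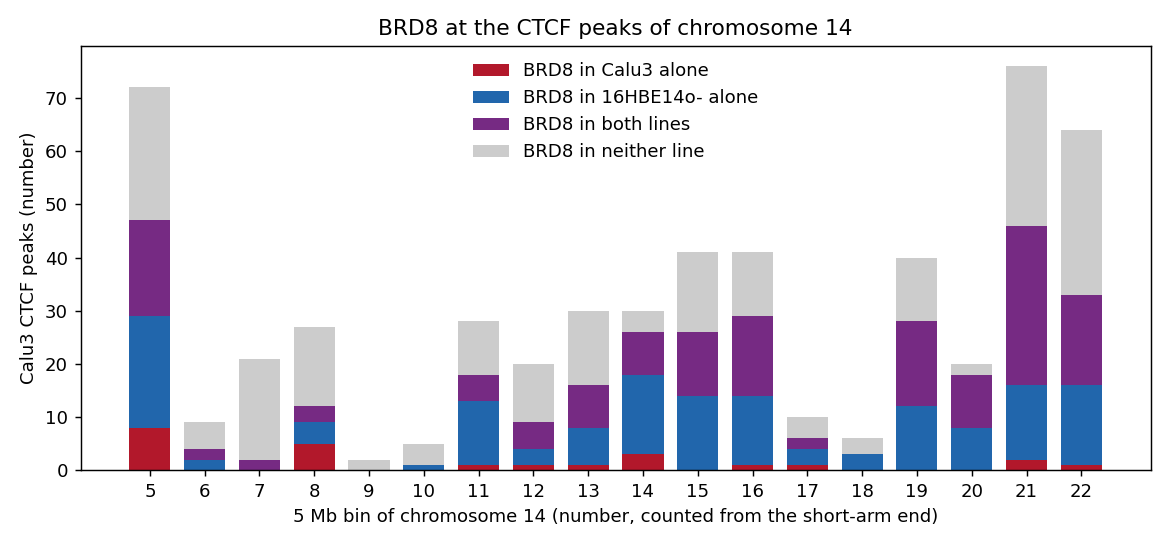
Number of Calu3 CTCF peaks in each 5 Mb bin of chromosome 14, divided by BRD8 in Calu3 alone (24 in all), 16HBE14o- alone (147), both lines (153) or neither (218). Sites with BRD8 in Calu3 alone number 8 in bin 5 and 5 in bin 8, and those with BRD8 in 16HBE14o- alone are found in 16 of the 18 bins.

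BRD8 away from listed CTCF peaks was also more frequent in 16HBE14o-. In Calu3, 206 of 286 BRD8 peaks overlapped CTCF, or 72.0% (66.4 to 77.2%), against 70.4% on other chromosomes and 70.5% in the whole list. In 16HBE14o- 298 of 541 did so, or 55.1% (50.8 to 59.3%), against 65.9% on other chromosomes and 65.3% in the whole list. Peaks without CTCF thus numbered 80 in Calu3 and 243 in 16HBE14o-. As shares of all such peaks of each list they had a ratio of 0.377 (0.289 to 0.487), and peaks with CTCF had a ratio of 0.623 (0.519 to 0.747). The largest class of 16HBE14o- peaks on the chromosome was that of 16HBE14o- alone without CTCF, 207 peaks (38.3%, 34.1 to 42.5%). On other chromosomes 2510 of 8964 peaks were of this class (27.1 to 28.9%). The 207 peaks were mostly weak, with a median percentile of 33.3, against 29.2 for this class on other chromosomes. Of the 207, 5 were in the strongest decile. The 146 peaks of 16HBE14o- alone with CTCF had a median percentile of 57.6, and the 152 shared peaks with CTCF one of 85.9, against 66.8 for shared peaks with CTCF on other chromosomes. In Calu3 the 179 shared peaks with CTCF had a median of 63.6, against 64.7 on other chromosomes. These CTCF peaks are those of Calu3, so CTCF binding in 16HBE14o- itself is unknown.

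Where BRD8 and CTCF peaks overlapped, their summits lay at distances similar to those of other chromosomes. The median distance on chromosome 14 was 38 bp over 206 pairs in Calu3 and 17 bp over 298 pairs of 16HBE14o- BRD8 with Calu3 CTCF. On other chromosomes it was 37 and 19 bp. The summits of BRD8 peaks shared between the lines were a median of 35 bp apart over 220 pairs, and 35 bp on other chromosomes.

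The 5 strongest Calu3 BRD8 peaks of the chromosome were also called in 16HBE14o-. The highest signal of either line lay at 14q21.3 (chr14:50328714-50329234, signal 191.2, rank 51 in Calu3), where the 16HBE14o- peak (chr14:50328823-50329046, signal 145.1) ranked 5 and the CTCF peak ranked 3474. The BRD8 summits of the lines were 4 bp apart, and the CTCF summit was 6 bp from that of Calu3. The next Calu3 peaks lay at 14q11.2 (chr14:21560660-21561023, rank 58 in Calu3 and 256 in 16HBE14o-), 14q32.33 (chr14:104544367-104544644, rank 63 in Calu3 and 24 in 16HBE14o-) and again at 14q11.2 (chr14:23590048-23590324, rank 81 in Calu3 and 104 in 16HBE14o-). The fifth, in the same band (chr14:23025923-23026365), ranked 116 in Calu3 and 852 in 16HBE14o-. So 3 of the 5 strongest Calu3 peaks lay from 20 to 25 Mb, where Calu3 had 46 and 16HBE14o- 54 peaks. Each of the 27 Calu3 peaks in the strongest decile overlapped CTCF (87.2 to 100%), and 26 were shared (96.3%, 81.0 to 99.9%). On other chromosomes 93.4% of the Calu3 peaks in the strongest decile overlapped CTCF, a value within that interval, and 80.2% were shared. The shared part contains the 16HBE14o- excess by which the chromosome was chosen.

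Of the 5 strongest 16HBE14o- peaks, the 3 not named so far ranked far lower in Calu3 or were not called there. The second strongest, at 14q24.3 (chr14:75079307-75079530), had rank 5057 in Calu3, against 15 in 16HBE14o-. The summits of the 16HBE14o- BRD8 and CTCF peaks coincided there, with CTCF at rank 130, the second strongest CTCF peak of the chromosome, while the Calu3 BRD8 summit lay 269 bp away. A second peak of 14q24.3 (chr14:74724257-74724480) ranked 2362 in Calu3 and 50 in 16HBE14o-, with CTCF at rank 290. The fourth strongest, at 14q32.33 (chr14:105512126-105512349, rank 32 in 16HBE14o-), had no Calu3 BRD8 peak within 1 kb, and its CTCF peak ranked 11046. These 3 were picked by their 16HBE14o- rank, and the others of the 5 are also among the 5 strongest of Calu3. That choice favours a lower position in Calu3. The fifth strongest CTCF peak, at 14q32.32 (chr14:103571321-103571565, rank 257), carried BRD8 at rank 1837 in Calu3 and 148 in 16HBE14o-. Of 99 16HBE14o- peaks in the strongest decile, 67 were shared (67.7%, 57.5 to 76.7%) and 32 were not. On other chromosomes 74.0% of such peaks were shared, a value within that interval.

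The 5 sites of lowest summed rank over the 3 lists were spread along the arm. The lowest summed rank belonged to the site of 14q11.2 at chr14:21560652-21560996, the third strongest CTCF peak of the chromosome, with ranks of 58 for Calu3 BRD8, 256 for 16HBE14o- BRD8 and 137 for CTCF. The strongest CTCF peak, at 14q22.3 (chr14:55518150-55518413, signal 273.9, rank 127), came next, with BRD8 at rank 672 in Calu3 and 66 in 16HBE14o-. It was followed by 14q32.2 (chr14:100095253-100095472), with BRD8 at rank 441 in Calu3 and 202 in 16HBE14o-, and 14q32.33 (chr14:105116731-105116963), with ranks of 891 and 74. At 14q32.12 (chr14:94405990-94406250) BRD8 ranked 703 in Calu3 and 176 in 16HBE14o-. BRD8 thus held the lower rank number, and the stronger position, in Calu3 at the first of these 5 sites and in 16HBE14o- at the other 4.

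Peaks called in 1 line had similar median percentiles, 41.2 over 66 Calu3 peaks and 40.99 over 353 16HBE14o- peaks. In Calu3, 61 peaks had no 16HBE14o- BRD8 peak within 1 kb, led by 14q12 (chr14:24834777-24835252, rank 705), 14q24.3 (chr14:77379790-77380265, rank 1051), 14q11.2 (chr14:22568435-22568910, rank 1591), 14q21.1 (chr14:38060756-38061231, rank 1792) and 14q32.31 (chr14:101701508-101701983, rank 1974). Each of these 5 overlapped a CTCF peak, that of 14q21.1 at CTCF rank 580. In 16HBE14o-, 343 peaks had no Calu3 BRD8 peak within 1 kb. After 14q32.33 above they were led by 14q23.3 (chr14:65486739-65486962, rank 170), 14q32.12 (chr14:93582144-93582367, rank 197), again 14q32.12 (chr14:93079489-93079712, rank 298) and 14q32.11 (chr14:91282737-91282960, rank 300). The first peak of 14q32.12 lay at the strongest CTCF peak from 90 to 95 Mb (CTCF rank 453), and the second had no CTCF peak within 1 kb. That second peak was also the strongest 16HBE14o- peak of the chromosome without CTCF, followed by 14q23.3 (chr14:65453365-65453588, rank 313) and 14q24.3 (chr14:76853586-76853809, rank 455, called in Calu3 at rank 6537). The strongest Calu3 peaks without CTCF lay at 14q32.32 (chr14:103857317-103857792, rank 1333), 14q24.1 (chr14:67993255-67993730, rank 1365) and 14q32.33 (chr14:104376584-104377059, rank 2067).

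In several called bins BRD8 at the leading CTCF site also ranked lower in Calu3. In the bin from 50 to 55 Mb the strongest CTCF peak, at 14q22.1 (chr14:50999309-50999554, CTCF rank 844), carried BRD8 at rank 2164 in Calu3 and 1003 in 16HBE14o-. In that from 60 to 65 Mb it lay at 14q23.2 (chr14:64761650-64761826, CTCF rank 2355), with BRD8 at rank 7266 in Calu3 and 520 in 16HBE14o-. From 65 to 70 Mb the leading CTCF peak, at 14q24.1 (chr14:69727867-69728105, CTCF rank 1527), carried BRD8 in 16HBE14o- at rank 782 and none in Calu3. From 95 to 100 Mb it lay at 14q32.13 (chr14:95155890-95156118, CTCF rank 523), with BRD8 at rank 1907 in Calu3 and 659 in 16HBE14o-. In the called bin from 30 to 35 Mb the leading CTCF site at 14q12 (chr14:31676904-31677161, CTCF rank 1077) had BRD8 at rank 8175 in Calu3 and 3574 in 16HBE14o-. From 80 to 85 Mb the leading CTCF peak, at 14q31.1 (chr14:81421151-81421440, CTCF rank 4414), carried BRD8 at rank 5488 in Calu3 and 6675 in 16HBE14o-, the opposite order. The strongest Calu3 BRD8 peak of that bin, also at 14q31.1 (chr14:81316466-81316941, rank 4856), had neither 16HBE14o- BRD8 nor CTCF within 1 kb, and the strongest 16HBE14o- peak (chr14:81919608-81919831) ranked 5326 in Calu3 and 2493 in 16HBE14o-.

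The leading Calu3 BRD8 peaks of the called bins varied in how their ranks compared between the lines, and that from 80 to 85 Mb, named above, had no 16HBE14o- partner. At 14q22.3 the leading Calu3 peak from 55 to 60 Mb (chr14:55737871-55738078) ranked 218 in Calu3 and 153 in 16HBE14o-. The leading BRD8 site from 70 to 75 Mb in Calu3, at 14q24.2 (chr14:71284471-71284701), ranked 253 in Calu3 and 190 in 16HBE14o-. At 14q32.11 the leading site from 90 to 95 Mb (chr14:90865932-90866183) ranked 182 in Calu3 and 87 in 16HBE14o-. At 14q32.13 the leading Calu3 peak from 95 to 100 Mb (chr14:96027390-96027548) ranked 516 in Calu3 and 1138 in 16HBE14o-. From 60 to 65 Mb the leading Calu3 peak, at 14q23.2 (chr14:62304237-62304712), ranked 3024 in Calu3 and 1129 in 16HBE14o-, and from 65 to 70 Mb the peak of 14q24.1 without CTCF named above ranked 1365 in Calu3 and 2053 in 16HBE14o-. From 30 to 35 Mb it lay at 14q13.1 (chr14:34697166-34697641), with rank 3974 in Calu3 and 4295 in 16HBE14o-. The leading 16HBE14o- peak from 95 to 100 Mb, at 14q32.2 (chr14:96566948-96567171), ranked 2185 in Calu3 and 105 in 16HBE14o-. Apart from that last one, these peaks were chosen as the strongest Calu3 peaks of their bins, which favours a high Calu3 rank.

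Bands known for genes of lung or chromatin biology were counted by summits. No hg19 gene annotation was used here, so peaks were assigned to bands and not to genes. In 14q11.2, the band of CHD8, of PRMT5, an arginine methyltransferase, and of the T cell receptor alpha locus, there were 38 Calu3 BRD8, 47 16HBE14o- BRD8 and 58 CTCF peaks (ratio 0.787, 0.499 to 1.23). Band 14q13.3, which holds NKX2-1 and PAX9, a paired box transcription factor, was the band with most Calu3 relative to 16HBE14o- peaks, with 8 Calu3 and 1 16HBE14o- BRD8 peaks beside 10 CTCF peaks (7.78, 1.04 to 345). Those 8 Calu3 peaks were separate regions of middle rank, with percentiles from 20.2 to 73.0 and a median of 49.7. The strongest, at chr14:37117079-37117554 (rank 2638), overlapped the strongest CTCF peak of the band (CTCF rank 3186), and the 1 site of both lines lay at chr14:37074117-37074592 (rank 4957 in Calu3 and 6400 in 16HBE14o-). In 14q21.1, the band of FOXA1, Calu3 had 5 BRD8 peaks and 16HBE14o- 3 (1.62, 0.316 to 10.4).

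In the bands named beyond 14q21.1, 16HBE14o- had more peaks than Calu3. Band 14q22.2, which holds BMP4, a secreted ligand of lung branching, had 2 Calu3 and 16 16HBE14o- BRD8 peaks beside 12 CTCF peaks (ratio 0.122, 0.0136 to 0.517). Band 14q23.2, with HIF1A, the oxygen-regulated transcription factor, had 4 Calu3 and 14 16HBE14o- peaks (0.278, 0.0666 to 0.885), and 14q24.3, with the immediate early gene FOS, 35 and 65 (0.524, 0.337 to 0.802). The SERPINA cluster band 14q32.13 had 8 Calu3 and 13 16HBE14o- peaks (0.599, 0.215 to 1.56). Band 14q32.2, which holds BCL11B, YY1 and the imprinted genes DLK1 and MEG3, had 25 Calu3 and 53 16HBE14o- peaks (0.459, 0.273 to 0.752). Band 14q32.33, with the immunoglobulin heavy chain genes, had 35 Calu3 BRD8, 55 16HBE14o- BRD8 and 81 CTCF peaks (0.619, 0.393 to 0.963), the most CTCF peaks of any band on the chromosome. There 17 CTCF peaks carried BRD8 in 16HBE14o- alone, against 1 with BRD8 in Calu3 alone.

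The longest stretch without a Calu3 BRD8 peak ran for 10.5 Mb between the summits at 39572488 in 14q21.1 and 50053789 in 14q21.3, and held 9 16HBE14o- BRD8 peaks and 8 CTCF peaks. Of those 9 peaks 2 overlapped CTCF, and the best ranked 193 in its list. The next ran for 6.56 Mb from 81919717 in 14q31.1 to 88480271 in 14q31.3, with 7 16HBE14o- BRD8 and 4 CTCF peaks. Another of 6.07 Mb lay within 14q12, between 25602163 and 31677118, with 4 16HBE14o- BRD8 and 15 CTCF peaks. In 16HBE14o- the longest stretch without a BRD8 peak was 4.78 Mb, between 39583492 in 14q21.1 and 44364017 in 14q21.2, and held 0 Calu3 BRD8 and 2 CTCF peaks.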

How the data were processed

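The authors made each of the 3 deposited lists from 2 replicates by the irreproducible discovery rate, per the series' design text, and the lists are in narrowPeak format, with hg19 positions, per the file headers. The aligner, peak caller and any control library are not given in the sources used here. The deposited signal ranks the peaks of each list. The deposited score columns and the p-value column, which is -1 throughout, were not used, and the summit offset was read from the other deposited column. Overlap of at least 1 bp, percentiles, bins of 5 Mb and exact intervals (Clopper-Pearson for shares, binomial split for ratios) came from scipy 1.17.1, pandas 2.3.3 and numpy 2.4.6 under Python 3.11.15. bedtools 2.31.1 gave the same overlap counts, and the functions were tested on simulated data. Bands came from circlize 0.4.16 and figures from matplotlib 3.10.9. A list is 1 value per experiment, so no test was made. Named peaks are the 5 strongest of each list, the 5 strongest of 1 line (none of the other within 1 kb), the 3 strongest per line without CTCF within 1 kb, the 5 of lowest summed rank, the strongest of called bins and the 3 longest stretches without Calu3 BRD8. The peaks named in 14q13.3 and the stretch without 16HBE14o- BRD8 were chosen after their values were seen. Members, bins and bands were chosen with earlier results of these data known. Gene symbols are background knowledge. RefSeq (GRCh38.p14) places each symbol named on chromosome 14, and its coordinates were not used.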

Additional observations from a re-analysis of the deposited data

How the results depend on the processing

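Each of 18 results was recomputed under its alternatives, 70 values in all, of which 58 stayed within the interval or within 1.5 times the number reported. The ratio for the whole chromosome ran from 0.456 to 0.526, and 7 to 11 bins were called for 16HBE14o-. The number of bins with enough peaks changed too. The calls were 7 of 12 bins with at least 20 BRD8 peaks and 11 of 17 with at least 5. In the upper 50% of each list they were 8 of 11, against 9 of 14 as reported. With bins shifted by 2.5 Mb 1 bin was called for Calu3. The division at 40 Mb and its alternatives were chosen after the data were seen. Among the upper 50% of each list the ratio was 1.09 (0.666 to 1.78) from 20 to 40 Mb and 0.375 beyond. A 224 bp peak cannot cover 50% of one of 476 bp, so with a reciprocal overlap of at least 50% only 5.24% of Calu3 peaks and 2.40% of 16HBE14o- peaks were shared. Under the same rule 44.8% of Calu3 peaks lay at CTCF, and 22.9% of CTCF peaks had Calu3 BRD8, and the cause was not tested. With summits within 100 bp, 61.2% of Calu3 peaks were shared and 56.6% lay at CTCF, and with peaks set to 200 bp 68.5% and 64.0%. In the upper 50% of each list, where fewer CTCF peaks remain to be met, 61.7% of Calu3 and 46.2% of 16HBE14o- BRD8 peaks lay at CTCF. With 1 pair per 16HBE14o- peak the difference at shared sites beyond 40 Mb was -16.7 points. No paired analysis was possible because each list combines both replicates, and for the same reason no replicate could be left out. The depth of the lists is unknown, so a site without a peak is not shown to be unbound.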
